A study of Rattus norvegicus with 47 samples.

Results

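Cited2, Vegfa and Adm are genes that cells switch on when oxygen falls, and here they are followed across both sides of the rat brain after injury. These are 3 of the 4737 genes named by a probe set of the array, a probe set being a group of short probes that together measure 1 transcript. All probe sets that the platform annotation assigns to them were taken, which gave 8 of 8799: 3 for Cited2, 4 for Vegfa and 1 for Adm. The genes were chosen from earlier results of the same arrays. In the side comparison of hippocampus at 4 h, a Cited2 probe set (rc_AA900476_at) had shown the largest difference upward on the ipsilateral side. Which measured values brought in Vegfa and Adm is not recorded. The members' values in that hippocampal comparison are therefore given here as a description, with no test. The p-values of the other comparisons are not independent of the choice of genes. All 8 probe sets passed the filter on dim signal (above a floor of 186, the 25th percentile of all values, on at least 7 arrays).

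The study hybridised total RNA from rat brain to 47 oligonucleotide arrays, 1 per sample. Cortex at 4 h after injury was measured on 7 ipsilateral (the labels' "ipsi") and 8 contralateral arrays, cortex at 24 h on 8 and 8, and the region labelled HC, read as hippocampus, at 4 h on 7 and 9. Every sample carries the same treatment label ("wait") beside its time after injury. The labels used here give no strain, age or kind of injury and name no sham or uninjured group, so a side difference is not a difference between injured and uninjured tissue. Arrays are named by the sample number of the label, and array 23 is labelled contralateral HC although its number lies among those of ipsilateral HC. The sample numbers run in separate blocks by region and time, and within these by side apart from array 23. Differences over time, between regions and between sides can therefore not be told apart from any effect of sample order, which was not tested. The labels do not say that each sample came from its own animal, and the p-values therefore measure only how these samples scatter, part of which may be technical. The samples are bulk tissue, in which fewer cells of a type and less RNA per cell cannot be told apart. To describe the regions, 7 hippocampus-enriched markers (of 10 listed) were summed. Their signal lay between 12450 and 21656 on hippocampal arrays and between 4452 and 7110 on cortical ones. That of 3 cortex-enriched markers (of 10 listed) lay between 14299 and 20318 against 26139 to 43672. These lists were chosen with earlier results of these data known, so the sums are no independent check of the labels.

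Hypoxia-inducible factors (HIFs) are pairs of an oxygen-sensitive alpha subunit and a stable partner (Arnt). In normal oxygen, prolyl hydroxylases (the Egln family) mark the alpha subunit for destruction through Vhl; in low oxygen it persists, recruits the coactivators Crebbp and Ep300, and switches on genes for blood supply and glycolysis. Vegfa encodes the secreted growth factor that makes endothelial cells sprout and vessels leak, and in brain it is made largely by astrocytes and neurons. Adm encodes adrenomedullin, a peptide that widens vessels and acts through Calcrl and a Ramp protein. Cited2 encodes a nuclear protein that is itself induced by HIF and competes with the HIF alpha subunit for the coactivators, a brake on the response.

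The HIF core letters were looked for in the RefSeq promoter windows of these genes (build GRCr8, 250 bases before to 50 after an annotated start), because the response to low oxygen is what joins them. The motifs were ACGTG and GCGTG, on both strands. Of the members' 4 windows (1 each for Cited2 and Adm and 2 for Vegfa), 1 held a match, that of Cited2, shown here as chr1:14132053-14132352 on the plus strand with the match in capitals.

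Cited2 promoter: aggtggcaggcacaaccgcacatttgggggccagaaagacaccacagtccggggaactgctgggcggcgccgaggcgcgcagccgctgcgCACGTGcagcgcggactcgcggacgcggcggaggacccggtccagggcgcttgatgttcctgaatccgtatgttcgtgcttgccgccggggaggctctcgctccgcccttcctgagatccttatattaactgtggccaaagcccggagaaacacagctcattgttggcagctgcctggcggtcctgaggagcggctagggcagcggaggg

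The capitals hold ACGTG once on each strand, overlapping by all but the outer bases, and begin 160 bases before the annotated start. Either motif occurred in 41.6% of all 33469 windows (ACGTG in 19.3%, GCGTG in 29.7%) and in 66.3% of the 98 windows of genes in the 6 hypoxia lists described further on. Those windows were also richer in G and C, 63.8% against 52.7%. A match is a description of the letters and not a site shown to be bound, and the windows of Vegfa (chr9:22452604-22452903 and chr9:22460028-22460327) and Adm (chr1:174179950-174180249) show only that the letters are not in these stretches.

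Cited2 was measured by 3 probe sets, whose differences between the hippocampal sides ran from −0.02 to 1.60 on the log2 scale. On rc_AA900476_at the signal in ipsilateral hippocampus at 4 h ran from 1299 to 1667 (median 1546), and in contralateral hippocampus from 116 to 1162 (median 557). All 7 ipsilateral arrays lay above the highest contralateral one, so the groups did not overlap. The means were 10.52 ± 0.15 log2 signal (SD, n = 7) and 8.92 ± 0.87 (n = 9), a difference of 1.60 (SE 0.35, 3.04-fold). It was the 1 probe set of the 8 whose hippocampal sides did not overlap. Among all tested probe sets 0.24% lay wholly higher and 1.27% wholly lower on the ipsilateral arrays, and 5.32% and 10.8% passed the test in these directions. Nothing is read from this, since the comparison chose the gene. Of the contralateral arrays, number 28 lay under the floor, to which dim signals were raised before log2 was taken, and number 26 at 205 just above it.

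The other Cited2 probe sets gave smaller values in the same hippocampal samples. On rc_AA900476_g_at, whose name shows the same source sequence, the ipsilateral arrays ran from 679 to 1401 (median 999) and the contralateral ones from 628 to 1372 (median 817). The groups overlapped, and the difference was 0.26 (SE 0.15, 95% interval −0.04 to 0.56). On rc_AI014091_at they ran from 3705 to 6777 and from 2245 to 6813, with a difference of −0.02 (SE 0.16, 95% interval −0.35 to 0.30). Array 23 was the highest contralateral array on the former (1372) and the lowest on the latter (2245). Without it the differences were 1.63, 0.35 and −0.17 in the order given.

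The gap between Cited2 probe sets was measured within each array, where sample-wide intensity is shared. The log2 signal of rc_AA900476_at minus that of rc_AI014091_at averaged −1.72 ± 0.26 in ipsilateral hippocampus (SD, n = 7) and −3.34 ± 0.94 (n = 9) in contralateral hippocampus. In cortex it averaged −2.26 ± 1.38 (n = 7) and −1.78 ± 0.73 (n = 8) at 4 h, and −2.40 ± 0.16 (n = 8) and −2.94 ± 0.82 (n = 8) at 24 h, ipsilateral first. The hippocampal gaps contain the values that chose the gene and are a description.

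Low signals also differed between the hippocampal sides. The 10th percentile of signal was 44 ± 6.85 on the ipsilateral arrays (SD, n = 7) and 64.8 ± 16.1 on the contralateral ones (n = 9), a log2 difference of −0.54 (exact two-sided permutation p = 0.0021, adjusted over 7 comparisons 0.0147). With this percentile as a covariate the difference of rc_AA900476_at was 1.09 in place of 1.60, and 5 probe sets in all passed in place of 1207. Choroid plexus markers also varied between these samples: the summed signal of 7 measured of 8 listed, none at 0, ran from 12514 to 115858 (median 19960) on the ipsilateral side and from 12406 to 109680 (median 54323) on the contralateral side. Their part in the Cited2 difference was not tested.

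**Figure D1:**
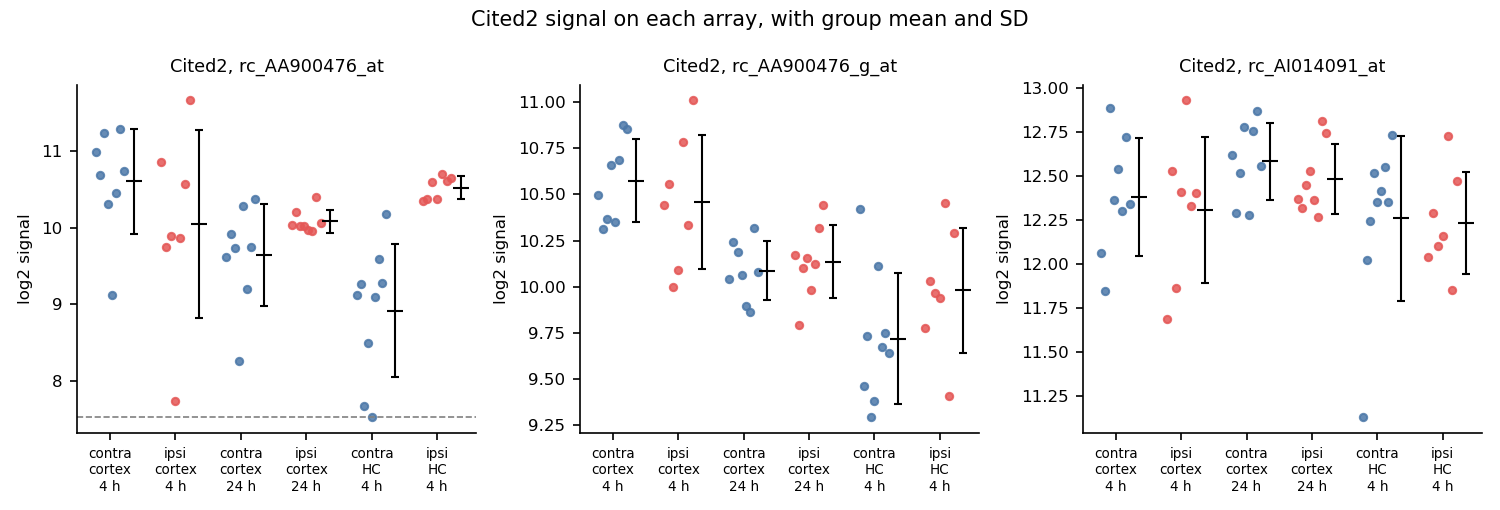
Log2 signal of the 3 Cited2 probe sets (1 panel each) on every array, by side, region and hours after injury; points are arrays (blue contralateral, red ipsilateral), black marks are the group mean ± SD, and the dashed line in the left panel is the floor. On rc_AA900476_at all 7 ipsilateral hippocampal arrays (HC) lay above the 9 contralateral ones, while on the other 2 probe sets these groups overlapped.

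In cortex no Cited2 probe set passed between sides in the fit over all arrays and 7503 probe sets (limma, p adjusted over all of them by Benjamini-Hochberg, threshold 0.05). On rc_AA900476_at the ipsilateral arrays at 4 h ran from 213 (array 5) to 3229 (array 8) with a median of 950, and the contralateral ones from 559 to 2484 with a median of 1678. The difference was −0.56 (SE 0.36, 95% interval −1.27 to 0.16, limma adjusted p = 0.786). At 24 h they ran from 990 to 1356 (median 1045) and from 308 to 1326 (median 856), and all 8 ipsilateral arrays lay above the contralateral median, with a difference of 0.44 (SE 0.35, 95% interval −0.26 to 1.13, adjusted p = 0.851). The other 2 probe sets differed by −0.12 and −0.08 at 4 h and by 0.05 and −0.10 at 24 h. Among all 7503 probe sets tested, 0% passed as higher and 0% as lower at 4 h, and 0.0933% and 0.0133% at 24 h (558 and 575 had an unadjusted p under 0.05), against 0 of the 8 members at either time.

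Cited2 fell with time in contralateral cortex on the pair of probe sets from the same source sequence. On rc_AA900476_g_at the contralateral arrays at 4 h ran from 1273 to 1880 (median 1531) and at 24 h from 930 to 1275 (median 1076). Of the 24 h arrays 7 of 8 lay below the lowest 4 h array, and the means were 10.58 ± 0.23 and 10.09 ± 0.16 log2 signal (SD, n = 8 and 8). The fall was 0.49 on the log2 scale (SE 0.15, 1.4-fold, limma adjusted p = 0.012). On rc_AA900476_at the fall was by 0.96 on the log2 scale (SE 0.35, adjusted p = 0.0398), with 0 of 8 arrays at 24 h above the 4 h median. This second call was lost with a lower floor or without the filter on dim probe sets, and on leaving out any of 9 arrays (9, 10, 11, 15, 16, 41, 43, 44 or 46; adjusted p up to 0.117). The third probe set, rc_AI014091_at, gave 0.20 (SE 0.16, 95% interval −0.12 to 0.52, adjusted p = 0.413).

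Ipsilaterally the time differences of Cited2 did not pass. They were −0.32 (SE 0.15, limma adjusted p = 0.132) for rc_AA900476_g_at, 0.04 (SE 0.36, with the sign turned to −0.01 by quantile normalization) for rc_AA900476_at and 0.17 (SE 0.17) for rc_AI014091_at. The change of the side difference with time was not past the threshold for any of the 3 (0.99, 0.17 and −0.03, with rc_AA900476_at first), so a difference between the sides in this fall was not shown.

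Between regions Cited2 was lower in hippocampus than in cortex on the same pair of probe sets, on both sides for rc_AA900476_g_at and on the contralateral side for rc_AA900476_at. These comparisons share the 4 h cortical arrays with those over time. On rc_AA900476_g_at contralateral hippocampus ran from 628 to 1372 (median 817) against 1273 to 1880 in contralateral cortex at 4 h, and 8 of 9 hippocampal arrays lay below the lowest cortical one. The array that did not was number 23. The difference was −0.86 (SE 0.14, 1.81-fold, limma adjusted p = 5.23e-06), and −0.94 without array 23. On the ipsilateral side it was −0.48 (SE 0.16, 1.39-fold, adjusted p = 0.0178), a call lost on leaving out array 8 or array 22 (adjusted p up to 0.061) or with only the 14 arrays of these groups in the fit. On rc_AA900476_at the contralateral difference was −1.68 (SE 0.34, adjusted p = 9.65e-05) and the ipsilateral one 0.48 (SE 0.37, adjusted p = 0.368). The contralateral differences of both probe sets rest on the same contralateral hippocampal arrays as the comparison that chose the gene. The ipsilateral ones rest on its ipsilateral arrays, so these p-values are no independent support. The third probe set gave −0.12 and −0.07, neither past the threshold.

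Ordered by the mean of rc_AA900476_g_at, the groups ran from contralateral hippocampus (9.72 ± 0.36, n = 9) through ipsilateral hippocampus (9.98 ± 0.34, n = 7), contralateral (10.09 ± 0.16, n = 8) and ipsilateral (10.14 ± 0.20, n = 8) cortex at 24 h to ipsilateral (10.46 ± 0.36, n = 7) and contralateral (10.58 ± 0.23, n = 8) cortex at 4 h. No step between neighbours exceeded the larger SD of the pair. On rc_AA900476_at the SD itself varied, from 0.15 in ipsilateral hippocampus and in ipsilateral cortex at 24 h to 1.2 in ipsilateral cortex at 4 h.

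Vegfa was higher at 24 h than at 4 h in cortex on both sides of the brain, on 3 of its 4 probe sets in at least 1 side. On M32167_at ipsilateral cortex ran from 575 to 1657 (median 1206) at 4 h and from 1494 to 2413 (median 1926) at 24 h. All 8 arrays at 24 h lay above the 4 h median and 6 above the highest 4 h array. The means rose from 10.06 ± 0.53 (SD, n = 7) to 10.91 ± 0.22 log2 signal (n = 8), a difference of 0.84 (SE 0.21, 1.80-fold, limma adjusted p = 0.00264) that stayed past the threshold under each of 8 alternative settings and on leaving out any 1 array.

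Contralateral cortex showed the same direction on M32167_at. It ran from 699 to 1734 (median 1239) at 4 h and from 1206 to 2405 (median 1853) at 24 h, with 5 of 8 later arrays above every earlier one. The rise was 0.66 (SE 0.20, 1.58-fold, limma adjusted p = 0.0143) and missed the threshold with quantile normalization (0.54, adjusted p = 0.068). The change of the side difference with time was 0.19 (SE 0.29, adjusted p = 0.984), so the rise was not shown to differ between the sides.

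The other Vegfa probe sets were higher at 24 h by smaller amounts. On rc_AA850734_at the rise was 0.34 in ipsilateral cortex (SE 0.11, 1.27-fold, limma adjusted p = 0.0209; arrays 1583 to 2299 at 4 h and 2004 to 3073 at 24 h). This call was lost with quantile normalization (0.23), with only the arrays of these groups, and on leaving out array 6, 7, 35 or 37 (adjusted p up to 0.0621). In contralateral cortex it was 0.26 (SE 0.11, adjusted p = 0.0815), with 8 of 8 later arrays above the earlier median. On M32167_g_at the rise was 0.44 in contralateral cortex (SE 0.15, 1.35-fold, adjusted p = 0.0244; arrays 549 to 866 and 686 to 1085). It was lost with quantile normalization (0.33) and on leaving out array 43, 44 or 46 (adjusted p up to 0.0558), and the ipsilateral difference was 0.38 (SE 0.15, adjusted p = 0.0727). The fourth, L20913_s_at, gave 0.30 (SE 0.14, adjusted p = 0.132) and 0.08 (SE 0.13, adjusted p = 0.708), the latter with the sign turned under quantile normalization (−0.02).

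Among the 8 members 2 rose and 0 fell in ipsilateral cortex over time, where 11.4% of all tested probe sets passed as higher and 7.92% as lower. In contralateral cortex 2 rose, both of Vegfa, and 2 fell, both of Cited2, against 13.2% and 8.25% of all tested probe sets. With quantile normalization the share of calls that were higher was 51.1% in contralateral cortex in place of 61.6%. Marker lists of other cell types were read beside these values. The summed signal of endothelial markers (8 measured of 14 listed, none at 0) ran from 10136 to 16776 at 4 h and from 14249 to 17701 at 24 h in ipsilateral cortex, and from 11813 to 14400 and from 13677 to 17529 in contralateral cortex. Of the 8, 1 passed as higher on the ipsilateral side and 0 on the contralateral side, and the ranges overlapped. The astrocyte markers (9 measured of 10 listed, none at 0) had summed signals of 210873 to 256116 at 4 h and 200554 to 220376 at 24 h in ipsilateral cortex, and of 205684 to 244930 and 187750 to 222232 in contralateral cortex. Of these 9, Aqp4, a water channel, rose on both sides (2.82-fold and 2.29-fold, ipsilateral first), while 1 and 2 others fell. The microglia and macrophage markers (8 measured of 12 listed, none at 0) had summed signals of 9226 to 13487 (median 11277) at 4 h and 8779 to 30777 (median 16115) at 24 h in ipsilateral cortex, where 2 passed as higher, Ptprc (0.92, SE 0.26) and Cx3cr1 (0.74, SE 0.27). In contralateral cortex the sums were 9249 to 11747 and 7216 to 12034, and 1 of the 8, C1qb, passed as lower (−0.54, SE 0.18). The part of any of these lists in the Vegfa rise was not tested.

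**Figure D2:**
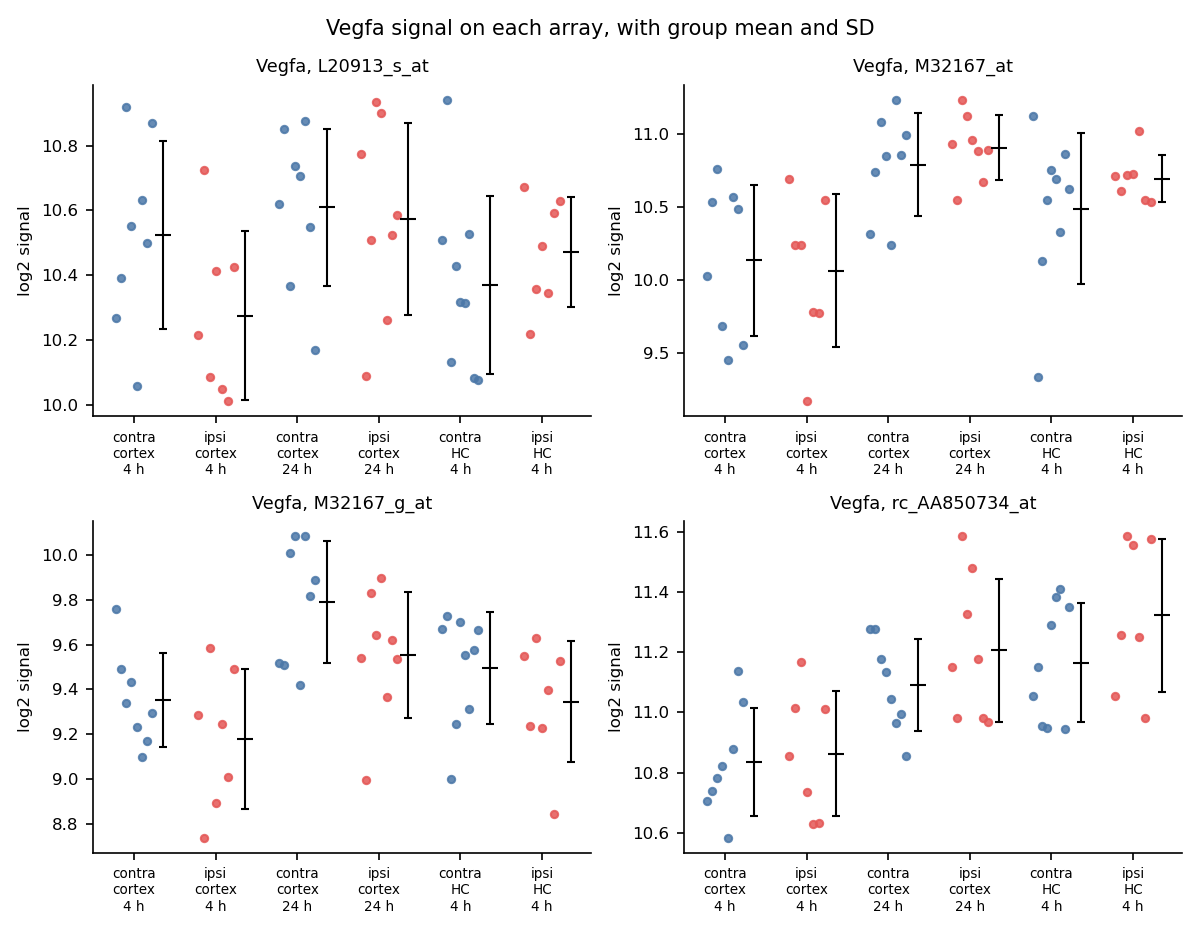
Log2 signal of the 4 Vegfa probe sets (1 panel each) on every array, by side, region and hours after injury; points are arrays (blue contralateral, red ipsilateral) and black marks are the group mean ± SD. On M32167_at and rc_AA850734_at cortex at 24 h lay above cortex at 4 h on both sides of the brain, with overlapping arrays.

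No Vegfa probe set passed between sides in cortex. At 4 h the differences were 0.03 (SE 0.11, 95% interval −0.19 to 0.25) for rc_AA850734_at, −0.07 (SE 0.21) for M32167_at, −0.17 (SE 0.15) for M32167_g_at and −0.25 (SE 0.14, 95% interval −0.53 to 0.03, limma adjusted p = 0.723) for L20913_s_at. At 24 h they were 0.12 (SE 0.11, 95% interval −0.10 to 0.33), 0.12 (SE 0.20), −0.24 (SE 0.15) and −0.04 (SE 0.13) in the same order, with adjusted p from 0.773 to 0.998. In hippocampus they were 0.16 (SE 0.11), 0.21 (SE 0.20), −0.15 (SE 0.15) and 0.10 (SE 0.14), of which −0.15 became 0.01 with quantile normalization. On rc_AA850734_at 3 of 7 ipsilateral hippocampal arrays lay above the highest contralateral one (2723).

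Between regions Vegfa was higher in hippocampus on rc_AA850734_at on both sides of the brain, and on M32167_at on the ipsilateral side. On rc_AA850734_at contralateral hippocampus ran from 1972 to 2723 (median 2273) and contralateral cortex at 4 h from 1535 to 2253 (median 1786), and all 9 hippocampal arrays lay above the cortical median. The difference was 0.33 (SE 0.10, 1.26-fold, limma adjusted p = 0.0108), but 0.18 (adjusted p = 0.199) with quantile normalization, which moved the median difference of all tested probe sets in this comparison from 0.11 to 0.01. Relative to that median the values were 0.22 and 0.17. On the ipsilateral side it was 0.46 (SE 0.11, 1.38-fold, adjusted p = 0.00161), with arrays from 2022 to 3072 against 1583 to 2299.

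On M32167_at the ipsilateral region difference was 0.63 (SE 0.22, 1.55-fold, limma adjusted p = 0.023), lost with quantile normalization (0.52) and on leaving out array 5 or 21 (adjusted p up to 0.0898). The contralateral one was 0.36 (SE 0.20, adjusted p = 0.161), and 0.50 (adjusted p = 0.0309) without array 25, the lowest of its group at 645. The remaining region differences of Vegfa were 0.14 and 0.17 for M32167_g_at and −0.15 and 0.20 for L20913_s_at, contralateral first, none past the threshold. With quantile normalization the contralateral value of M32167_g_at turned to −0.10, and that of L20913_s_at became −0.34 and passed (adjusted p = 0.0451).

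Of the 8 members 1 was higher and 2 lower in contralateral hippocampus than in contralateral cortex, against 22.3% and 11.4% of all tested probe sets. On the ipsilateral side 2 were higher and 1 lower, against 16.7% and 10.8%. With quantile normalization 49.3% of the contralateral calls were higher in place of 66.2%.

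Ordered by the mean of rc_AA850734_at, Vegfa was lowest in contralateral (10.84 ± 0.18, n = 8) and ipsilateral (10.86 ± 0.21, n = 7) cortex at 4 h. Contralateral cortex at 24 h (11.09 ± 0.15, n = 8), contralateral hippocampus (11.17 ± 0.20, n = 9), ipsilateral cortex at 24 h (11.21 ± 0.24, n = 8) and ipsilateral hippocampus (11.32 ± 0.25, n = 7) followed. The step from ipsilateral cortex at 4 h to contralateral cortex at 24 h was the only one larger than both SDs.

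Adm was dim, and its single probe set (D15069_s_at) lay above the floor of 186 on 19 of 47 arrays. In cortex at 4 h the ipsilateral arrays ran from 71.1 to 465 (median 116, 3 of 7 above the floor) and the contralateral ones from 59.5 to 297 (median 103, 2 of 8). At 24 h they ran from 63.3 to 336 (median 207, 5 of 8) and from 41.6 to 206 (median 94, 2 of 8), and 4 of the 8 ipsilateral arrays lay above the highest contralateral one. In hippocampus they ran from 43.8 to 606 (median 129, 3 of 7) and from 51.0 to 240.5 (median 138, 4 of 9). The highest array of each ipsilateral group at 4 h was array 8 in cortex (465) and array 24 in hippocampus (606), and the groups overlapped in all 3 pairs.

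No Adm difference passed. With dim signals raised to the floor, the side differences were 0.17 in cortex at 4 h (SE 0.19, 95% interval −0.22 to 0.55, limma adjusted p = 0.904) and 0.29 at 24 h (SE 0.18, 95% interval −0.08 to 0.66, adjusted p = 0.789), and 0.39 (SE 0.19) in hippocampus. The time differences were 0.03 on the ipsilateral and −0.10 on the contralateral side, and the region differences 0.15 and −0.07. Most arrays of every group but ipsilateral cortex at 24 h stood at the floor, where values have no order, so these differences leave out any change below it. They rest on the few arrays above the floor. In hippocampus the ipsilateral median signal (129) lay under the contralateral one (138), although the floored difference was 0.39.

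**Figure D3:**
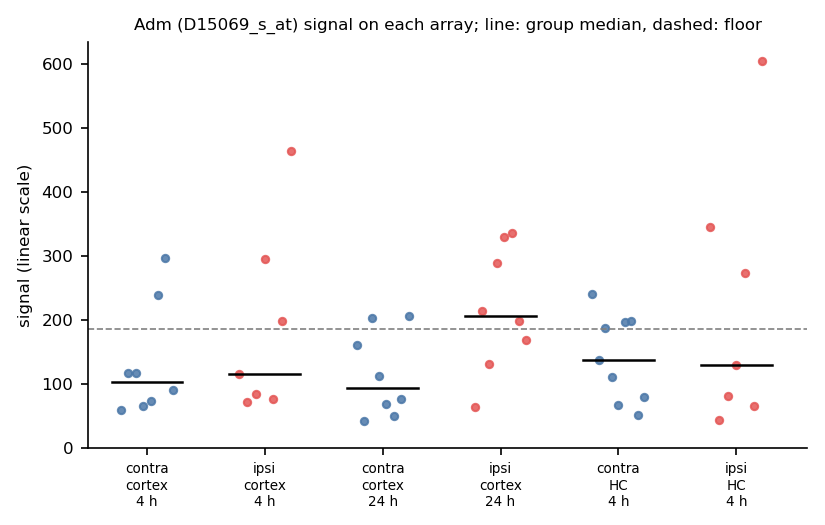
Signal of the Adm probe set on every array on a linear scale, by side, region and hours after injury; points are arrays (blue contralateral, red ipsilateral), black lines are group medians and the dashed line is the floor of 186. Most arrays lie under the floor, and the highest values are single ipsilateral arrays at 4 h.

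**Figure D4:**
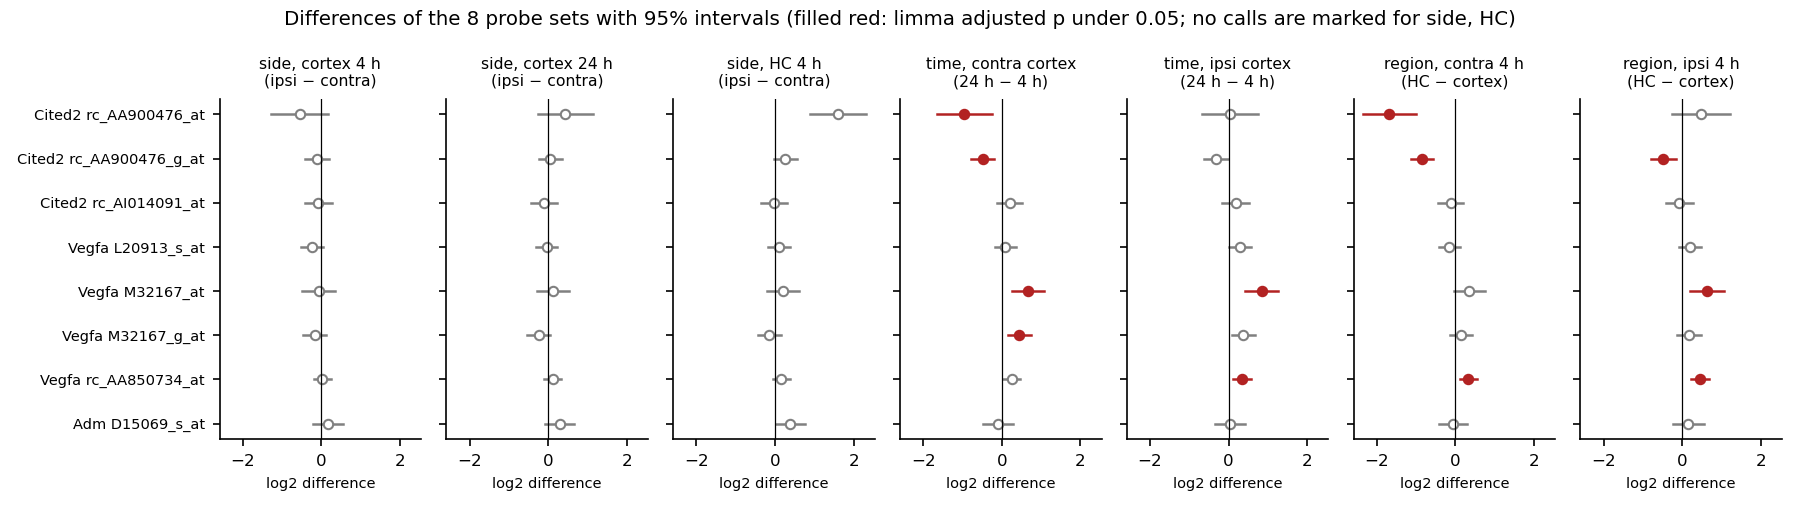
Log2 differences of the 8 probe sets in 7 comparisons, with 95% intervals. Filled red marks passed at a limma adjusted p under 0.05, and the hippocampal side comparison, which chose Cited2, carries no call. No side difference in cortex passed, Vegfa lay to the right and the first 2 Cited2 probe sets to the left over time in contralateral cortex.

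Probe sets of 1 gene followed each other weakly from array to array. Over the 47 arrays, as deviations from the group means, the highest of 9 pairwise correlations within Cited2 and Vegfa was that of M32167_at with M32167_g_at (Pearson r = 0.339, permutation p = 0.0239, adjusted over 9 pairs 0.161; Spearman rho = 0.397, permutation p = 0.00877, adjusted 0.0789; r = 0.422 without the 2 arrays farthest from the median). Next was rc_AA900476_at with rc_AA900476_g_at (r = 0.335, permutation p = 0.0514, adjusted 0.161; rho = 0.255, permutation p = 0.116, adjusted 0.226; r = 0.245 without those 2 arrays). The other 7 had r between −0.06 and 0.30, and none of the 9 passed after adjustment by either measure.

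The genes whose pattern over the arrays was most like that of each member were found among 4242 genes tested, by Pearson's r of log2 signal over all 47 arrays, and are given as a description. For Vegfa (rc_AA850734_at) they were Aqp4 (0.721), the growth factor receptor Fgfr2 (0.693) and the iron regulatory protein Ireb2 (0.686), and as deviations from the group means Nudt4 (0.575), the RNA editing enzyme Adarb1 (0.53) and the neurofilament Nefh (0.528). For Cited2 (rc_AI014091_at, the probe set with its highest mean) they were the neuronal transporter Slc6a17 (0.617), the integrin Itgav (0.562) and Adgrl2 (0.56), and as deviations the steroid-responsive factor Klf9 (0.672), the chaperonin Hspe1 (0.566) and Slc6a17 (0.558). For Adm they were Olr1, a receptor for oxidised lipoprotein (0.734), the interferon-induced Gbp2 (0.65) and Xdh (0.615), and by deviations the same 3 genes (0.713, 0.622 and 0.603). Arrays at the floor enter these Adm values. Other probe sets of the same gene led to other closest genes over all arrays. For Cited2 these were Ykt6 (0.671) on rc_AA900476_at and Mtdh (0.767) on rc_AA900476_g_at. For Vegfa they were Madd (0.571) on L20913_s_at, LOC102547703 (0.679) on M32167_at and Dlg2 (0.687) on M32167_g_at. The genes named for Cited2 and Vegfa thus belong to 1 probe set each.

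The rest of the oxygen response was read from 6 lists of genes, 63 of which were measured. In cortex 0 of 63 passed between sides at either time. The smallest p-values at 24 h belonged to Hmox1, a haem-degrading enzyme, at 0.91 (SE 0.29, limma adjusted p = 0.279), and Calca, the gene of the peptide CGRP, at 0.49 (SE 0.16, adjusted p = 0.336). At 4 h they belonged to Edn1, the vessel-narrowing endothelin, at −0.64 (SE 0.23, adjusted p = 0.481), and the glycolytic Pgk1 at 0.37 (SE 0.14, adjusted p = 0.547). In hippocampus 1 of 63 was higher and 7 were lower, against 5.32% and 10.8% of all tested probe sets. With quantile normalization 46.2% of all calls there were higher in place of 33.1%. The mitophagy receptor Bnip3l rose by 0.22 (SE 0.08, limma adjusted p = 0.0413). Those that fell included Tgfb3 (−0.78, SE 0.27), the Vegfa receptor Flt1 (−0.76, SE 0.27), the hexokinase Hk2 (−0.69, SE 0.20), Pfkfb4 (−0.66, SE 0.14) and the chemokine receptor Cxcr4 (−0.54, SE 0.14), with adjusted p from 0.00199 for Pfkfb4 to 0.0451 for Flt1.

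Among oxygen sensors, HIF subunits and the partners of Cited2, 3 genes passed over time. This was 2 of 6 and 1 of 5 in ipsilateral cortex and 1 of 6 and 1 of 5 in contralateral cortex, where 11.4% and 13.2% of all tested probe sets rose and 7.92% and 8.25% fell. Of 6 measured sensor, subunit and chaperone genes, Arnt2 rose and Hsp90ab1 fell in ipsilateral cortex, and Arnt2 alone passed in contralateral cortex. Arnt2, a HIF partner, rose, ipsilateral first, by 0.50 (SE 0.16, limma adjusted p = 0.0182) and 0.64 (SE 0.15, adjusted p = 0.00174). Between regions 1 of 6 and 2 of 5 passed contralaterally and 3 of 6 and 2 of 5 ipsilaterally. Of all tested probe sets 22.3% and 16.7% were higher and 11.4% and 10.8% lower in hippocampus, contralateral first. Hif1a was higher in hippocampus than in cortex on the ipsilateral side (0.43, SE 0.14, adjusted p = 0.0175) and Arnt on both sides (0.36, SE 0.14, and 0.41, SE 0.15). Lhx2 was higher on both sides too (0.33 and 0.42). Lower in hippocampus were Cited1 contralaterally (−0.50, SE 0.16) and Hsp90ab1 (−0.22, SE 0.08) and Smad2 (−0.38, SE 0.14) ipsilaterally. Of 5 coactivator and partner genes 1 rose over time on each side, the developmental factor Lhx2, a known partner of Cited2 (0.32, SE 0.10, and 0.40, SE 0.09, ipsilateral first).

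Of 9 other VEGF family and receptor genes, 2 were higher and 1 lower in contralateral hippocampus, against 22.3% and 11.4% of all tested probe sets. On the ipsilateral side 2 were higher and 0 lower, against 16.7% and 10.8%. Over time 11.4% and 13.2% of all tested probe sets rose and 7.92% and 8.25% fell in cortex, ipsilateral first. Of the 9 genes 1 rose in ipsilateral cortex and 0 passed in contralateral cortex. The co-receptor Nrp1 was the one that rose (0.41, SE 0.11, limma adjusted p = 0.00565). Nrp1 was also higher in hippocampus by 1.32 (SE 0.10, 2.49-fold, adjusted p = 1.35e-14) on the contralateral side and 2.82-fold on the ipsilateral side. The related Nrp2, at or near the floor in cortex, was higher in hippocampus by 0.55 (SE 0.20, limma adjusted p = 0.0289) and 0.80 (SE 0.22, adjusted p = 0.00457), while the receptor Kdr was lower in contralateral hippocampus (−0.93, SE 0.24, limma adjusted p = 0.00178). Of 5 genes of the adrenomedullin and CGRP system 1 rose over time on each side, the adrenomedullin receptor Calcrl, by 0.59 (SE 0.16, adjusted p = 0.00606) and 0.56 (SE 0.15, adjusted p = 0.0057), ipsilateral first. Calcrl was higher in hippocampus too (0.68, SE 0.15, and 0.49, SE 0.16, contralateral first).

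HIF target genes went both ways over time. Of 17 genes of glucose metabolism 1 rose and 2 fell in ipsilateral cortex and 3 rose and 4 fell in contralateral cortex. The neuronal glucose transporter Slc2a3 rose by 0.48 (SE 0.13, limma adjusted p = 0.00706) and 0.53 (SE 0.13), and the aldolase Aldoc fell by 0.42 on the log2 scale (SE 0.07, adjusted p = 5.66e-05) on the ipsilateral side. Of 21 other targets 3 rose and 2 fell, and 2 rose and 1 fell. The transferrin receptor Tfrc rose by 0.80 (SE 0.19, adjusted p = 0.00211) and 0.94 (SE 0.19), and the mitochondrial kinase Ak4 by 0.73 (SE 0.13) and 0.79 (SE 0.12). Over all 6 lists 8 of 63 rose (12.7%) and 5 fell (7.94%) in each cortex, near the shares of all tested probe sets. Those shares were 11.4% and 7.92% in ipsilateral cortex and 13.2% and 8.25% in contralateral cortex. The median differences were 0.07 and −0.01, ipsilateral first, against 0.03 and 0.04 over all tested probe sets. Between regions 13 were higher (20.6%) and 8 lower (12.7%) on the contralateral side, against 22.3% and 11.4% of all tested probe sets. On the ipsilateral side 10 were higher (15.9%) and 11 lower (17.5%), against 16.7% and 10.8%.

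**Figure D5:**
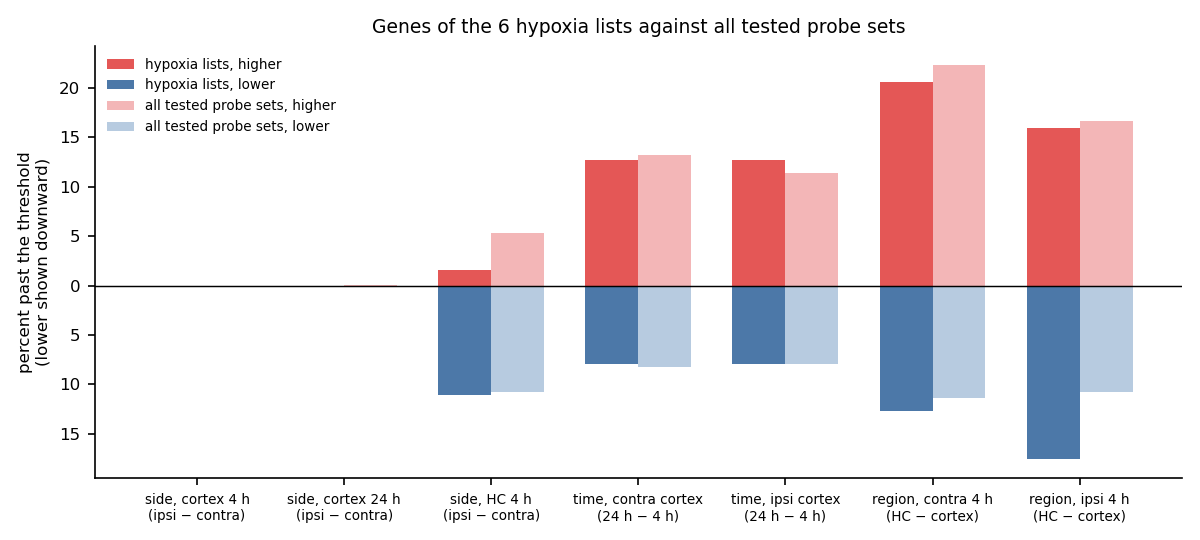
Percent of the 63 measured genes of the 6 hypoxia lists that passed at a limma adjusted p under 0.05 in each comparison (dark bars; higher upward, lower downward), beside the percent of all 7503 tested probe sets (pale bars). Over time the bars nearly match, with 12.7% of the lists' genes higher on both sides against 13.2% and 11.4%.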

How the data were processed

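The deposited table holds a signal intensity per probe set, made by the authors on a linear scale; neither labels nor header name the summary algorithm, scaling target or software. The 2%-trimmed means of the 47 arrays lay between 2503 and 2504, within the tolerance of 5%, so values were kept as deposited. Signals under the 25th percentile of all values (186) were set to that value before taking log2. Probe sets above this floor on at least 7 arrays were tested, without 59 controls, leaving 7503. Precision is limited by the number of arrays, and levels of different probe sets are not comparable.

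Symbols came from the platform annotation, updated by gene ID (6104 of 6122 tested probe sets with 1 symbol matched). In R 4.3.3, limma 3.58.1 fitted 6 group means over all 47 arrays (eBayes with an intensity trend, two-sided, Benjamini-Hochberg adjustment over all tested probe sets, threshold 0.05). The procedure was tried on simulated data of independent normal noise, for the cortical side comparison at 24 h. Those data had no floor and no effects shared by an array, so they do not test how the procedure deals with these. In lists a gene stands by its tested probe set with the highest mean; named list genes have the largest changes past the threshold, or the smallest p where none passed. Permutation tests used scipy 1.17.1, exact or with 100000 permutations within groups. Members, lists and comparisons were chosen with earlier results of these data known. Alternatives covered the floor, filter, normalization, variance model, array weights, a covariate and single arrays.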

Additional observations from a re-analysis of the deposited data

Results flagged for a closer look

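In 48 combinations of probe set and group, 4 held an array flagged as apart from the rest of its group, on 3 arrays in all. The gap test was run on log2 values with dim signals raised to the floor. It flags about 1 group in 20 by chance where values are not tied at the floor. Array 13 had a signal of 559 for Cited2 on rc_AA900476_at in contralateral cortex at 4 h, where the next lowest was 1266. Array 23 was lowest for Cited2 on rc_AI014091_at in contralateral hippocampus (2245, next 4166) and was flagged as highest there for Adm (240.5, next 199). For Adm only 4 of these 9 arrays lay above the floor and the rest were tied at it, which narrowed the range. The Adm flag therefore does not show that array 23 stood apart in signal. Array 21 was highest for Vegfa on M32167_at in ipsilateral hippocampus (2078, next 1695).

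The side difference of Cited2 on rc_AA900476_at differed between hippocampus and cortex at 4 h by 2.16 log2 units in the fit over all arrays. The hippocampal part of this difference chose the gene, so it is a description, and the other Cited2 probe sets gave 0.38 and 0.05.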

How the results depend on the processing

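For the 8 probe sets in 9 comparisons (72 results), 8 alternative settings gave 576 values, of which 15 changed a call and 16 turned the sign of a difference that was not called; leaving out single arrays gave 3384 values, of which 25 changed a call and 52 turned such a sign. The cause of these changes was not tested. Quantile normalization took these below the threshold: for Vegfa, M32167_at over time in contralateral cortex (0.54) and between regions ipsilaterally (0.52), M32167_g_at over time contralaterally (0.33), and rc_AA850734_at over time ipsilaterally (0.23) and between regions contralaterally (0.18). Adding each array's 10th signal percentile to the model lowered the hippocampal side difference of Cited2 (rc_AA900476_at) to 1.09. Its fall over time in contralateral cortex (−0.96) missed the threshold with a floor at the 10th percentile or no filter. With only the arrays of the groups compared, Cited2 rc_AA900476_g_at between regions ipsilaterally (−0.48) and Vegfa rc_AA850734_at over time ipsilaterally (0.34) missed it. Calls were also gained for Vegfa: M32167_g_at over time ipsilaterally with no intensity trend (0.38) and with array weights (0.45), and L20913_s_at between regions contralaterally with quantile normalization (−0.34). A further change counted above was that of Cited2 rc_AA900476_g_at between hippocampal sides with array weights (0.35). It lies in the comparison that chose the gene, so nothing is read from it.

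Counts over all probe sets moved more. The hippocampal side comparison gave 1881 calls with array weights and 5 with the covariate, in place of 1207. The change of the side difference between regions gave 64 calls with only the arrays compared and 1 with the covariate, in place of 314, and that with time 1 with the lower floor. The cortical side comparison at 24 h gave 0 calls with no filter, with only the arrays compared, with no intensity trend and without array 23, 38 with array weights and 13 with the covariate, in place of 8. At 4 h it gave 5 with the lower floor, 3 with no floor (log2 of signal plus 100), 1 each with quantile normalization and no trend, 2 with the covariate and 2 without array 23, in place of 0.

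Signs turned in uncalled differences as follows. For Adm these were the contralateral region difference with the lower floor (0.16) or none (0.079), and the change of the side difference between regions (−0.089 and −0.0033). For Cited2 they were rc_AA900476_at over time ipsilaterally with no floor (−0.0088), quantile normalization (−0.011), array weights (−0.015) and the covariate (−0.19), and rc_AI014091_at for the change of the side difference between regions (−0.029, covariate) and with time (0.035, weights). For Vegfa they were L20913_s_at between sides at 24 h (0.065, weights) and over time contralaterally (−0.021, quantile), M32167_at between sides at 4 h (0.026, weights), and M32167_g_at between regions contralaterally (−0.10, quantile), between hippocampal sides (0.0094, quantile) and for the change of the side difference with time (0.053, weights).

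Leaving out single arrays changed a call or a sign in the following ranges. For Cited2, rc_AA900476_at ran from −1.17 to −0.76 over time contralaterally and from −0.35 to 0.31 ipsilaterally, and rc_AA900476_g_at from −0.56 to −0.38 between regions ipsilaterally. Differences of rc_AI014091_at ran from −0.17 to 0.039 between hippocampal sides, −0.18 to 0.028 between cortical sides at 4 h, −0.20 to 0.017 and −0.18 to 0.031 between regions (contralateral, ipsilateral), and −0.090 to 0.15 and −0.13 to 0.077 for the change of the side difference between regions and with time. For Vegfa, M32167_at ran from 0.48 to 0.74 between regions ipsilaterally, 0.26 to 0.50 contralaterally (gained without array 25) and −0.18 to 0.079 between sides at 4 h, and M32167_g_at from 0.40 to 0.50 over time contralaterally, from 0.30 to 0.45 over time ipsilaterally (gained without array 4, 8 or 34) and from −0.049 to 0.11 and −0.14 to 0.017 for the change of the side difference between regions and with time. The range of rc_AA850734_at was 0.29 to 0.39 over time ipsilaterally, 0.22 to 0.30 contralaterally (gained without array 15) and −0.023 to 0.071 between sides at 4 h, and that of L20913_s_at −0.10 to 0.032 between sides at 24 h. For Adm the ranges were −0.0020 to 0.25 between sides at 4 h, −0.11 to 0.011 and −0.057 to 0.32 between regions (contralateral, ipsilateral), and −0.046 to 0.20 over time ipsilaterally. No paired analysis was possible because each sample number of the labels occurs once and the labels used do not say which samples share an animal. Samples from the same animal, if any, were therefore fitted as independent. Adm lies under the floor on most arrays, which hides differences below it.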
